A study of Rattus norvegicus with 18 samples.

Results

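The genes described here make cholesterol, control its synthesis, move it through the cell and carry it out of the hepatocyte. They number 31 and were listed by function, as sterol synthesis enzymes, genes of SREBP2 control and genes of cholesterol transport. Each was read from the probe with the highest mean over all arrays. All 31 had a probe and all 31 were among the 10914 genes tested. All of them except Abcg8 were well above background on all 18 arrays. Abcg8 was well above background only in the 3 rats given DEN for 84 days and was tested because of that group. The liver RNA came from F344 males, 5 weeks old on purchase and acclimatised for 1 week, with 1 rat per one-colour Agilent array and 3 rats per group. Rats received N-nitrosodiethylamine (DEN), a nitrosamine that alkylates DNA, at 4 mg/kg in saline, or carbon tetrachloride (CCl4), a hepatotoxicant that is not genotoxic, at 100 mg/kg in corn oil, daily by gavage at 5 mL/kg for 28 or 84 days. Controls of both days ate the basal diet. The protocol calls them untreated and the sample titles call them vehicle, so gavage and vehicle cannot be told apart from the compounds. The series title asks about genes lowered in rat liver by hepatocarcinogens that are not genotoxic.

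Cholesterol is built from acetyl-CoA through mevalonate and squalene to lanosterol, which a chain of reductases, demethylases and isomerases turns into cholesterol. The transcription factor SREBP2 (gene Srebf2) drives nearly all of these enzymes. When sterols are low, its escort SCAP carries it from the endoplasmic reticulum to the Golgi for cleavage, and when sterols are high, INSIG1 and INSIG2 hold the SCAP and SREBP2 complex back. Cholesterol that reaches lysosomes leaves through NPC2 and NPC1. Hepatocytes export it as nascent HDL through ABCA1 and into bile through the ABCG5 and ABCG8 pair, whose genes are targets of the oxysterol receptor LXR.

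Promoter sequences were matched in the RefSeq table (rat build GRCr8, 250 bases before to 50 after the start) for 25 of the 31 genes. Pmvk, Fdft1, Sqle, Stard4, Soat2 and Scarb1 had no entry there. The windows were searched on both strands for 3 motifs, and hits were counted separately where motifs overlapped. CCAAT, the box bound by NF-Y, a factor that works with SREBP2 at sterol promoters, was in 19 of the 25 windows (76%) and in 12549 of 33469 promoters of the same length (37.49%). GGGCGG, a box bound by Sp1, was also in 19 of the 25 (76%), against 33.06% of all promoters. TCACNCCAC, a form of the sterol regulatory element, was in 0 of the 25 windows and in 1.117% of all promoters. Mvk and Nsdhl held 5 CCAAT boxes each, Msmo1, Hsd17b7 and Npc2 held 3, and Acat2, Cyp51, Dhcr7, Scap, Npc1 and Abca1 held 0. A match here is a run of letters and no measured site. The windows below are those of enzymes and regulators whose values carry the results, with CCAAT, or ATTGG where it lies on the other strand, in capitals. Hmgcs1 lies on the plus strand at chr2:53382054-53382353, Idi1 on the minus strand at chr17:66547475-66547774, Msmo1 on the plus strand at chr16:29746863-29747162, Tm7sf2 on the minus strand at chr1:212789492-212789791, Insig1 on the minus strand at chr4:8057720-8058019, Insig2 on the minus strand at chr13:35040049-35040348 and Abcg5 on the plus strand at chr6:15717686-15717985. The Abcg5 window stands for Abcg8 too: the 2 genes start 206 bases apart on opposite strands, and their windows share 295 bases.
Hmgcs1: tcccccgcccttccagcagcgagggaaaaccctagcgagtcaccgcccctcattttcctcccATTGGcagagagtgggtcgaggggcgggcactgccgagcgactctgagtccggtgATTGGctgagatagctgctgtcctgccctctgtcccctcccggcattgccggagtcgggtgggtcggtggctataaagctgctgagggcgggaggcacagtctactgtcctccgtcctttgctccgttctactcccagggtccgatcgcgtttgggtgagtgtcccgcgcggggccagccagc
Idi1: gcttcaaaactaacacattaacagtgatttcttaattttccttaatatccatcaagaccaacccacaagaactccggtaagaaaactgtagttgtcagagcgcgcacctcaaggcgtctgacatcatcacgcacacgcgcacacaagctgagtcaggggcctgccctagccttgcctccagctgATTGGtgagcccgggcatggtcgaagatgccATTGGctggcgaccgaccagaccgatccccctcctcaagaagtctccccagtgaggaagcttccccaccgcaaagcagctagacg
Msmo1: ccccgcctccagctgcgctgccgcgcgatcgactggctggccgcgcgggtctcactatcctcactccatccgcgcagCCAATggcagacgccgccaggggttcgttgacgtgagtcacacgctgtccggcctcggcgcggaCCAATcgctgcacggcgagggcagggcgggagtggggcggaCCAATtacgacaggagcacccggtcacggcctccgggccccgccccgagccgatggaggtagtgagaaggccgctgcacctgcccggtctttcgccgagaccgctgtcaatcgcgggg
Tm7sf2: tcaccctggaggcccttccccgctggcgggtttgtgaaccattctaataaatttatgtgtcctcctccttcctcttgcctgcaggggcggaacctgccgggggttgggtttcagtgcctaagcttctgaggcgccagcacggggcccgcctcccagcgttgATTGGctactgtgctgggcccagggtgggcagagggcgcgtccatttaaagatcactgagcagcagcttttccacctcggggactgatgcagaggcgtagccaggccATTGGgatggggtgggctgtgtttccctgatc
Insig1: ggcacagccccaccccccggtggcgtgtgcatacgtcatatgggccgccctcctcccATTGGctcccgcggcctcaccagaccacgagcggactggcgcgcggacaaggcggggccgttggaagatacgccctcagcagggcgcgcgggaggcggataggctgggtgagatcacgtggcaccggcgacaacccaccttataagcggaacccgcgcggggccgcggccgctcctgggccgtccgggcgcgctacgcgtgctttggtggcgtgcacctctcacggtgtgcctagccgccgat
Insig2: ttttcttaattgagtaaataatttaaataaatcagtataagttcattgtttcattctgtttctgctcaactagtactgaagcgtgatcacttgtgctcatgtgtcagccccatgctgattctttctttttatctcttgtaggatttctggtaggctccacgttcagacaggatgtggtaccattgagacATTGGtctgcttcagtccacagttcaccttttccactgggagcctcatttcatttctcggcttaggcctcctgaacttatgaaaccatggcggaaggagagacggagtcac
Abcg5: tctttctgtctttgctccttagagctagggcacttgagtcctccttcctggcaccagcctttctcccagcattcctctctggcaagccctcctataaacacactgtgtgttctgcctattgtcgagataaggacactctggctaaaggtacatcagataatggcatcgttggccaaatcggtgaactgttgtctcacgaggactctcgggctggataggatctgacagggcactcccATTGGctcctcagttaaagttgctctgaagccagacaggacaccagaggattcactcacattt

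Levels are given as log2 of the processed signal minus the array's own 75th percentile, so they compare rats for 1 probe and never 1 probe with another. Differences are log2 fold changes from a linear model (limma) over all 18 arrays, given ± SE, and a gene was called at a Benjamini-Hochberg adjusted p under 0.05 over the 10914 genes. Between 47.2% and 57.0% of an array's probes were well above background, and no probe was saturated. The 75th percentile itself stood higher relative to 8 spike-in probes in treated rats than in controls, by 0.41 (DEN) and 0.80 (CCl4) at day 28 and by 0.70 and 0.55 at day 84 on the log2 scale. Every direction below is therefore relative to the bulk of the array, and the calls under spike-in scaling are set beside it. Arrays lay on 3 slides: slide 1 held all rats of day 28 except CCl4 replicate 3, which shared slide 2 with the controls and DEN rats of day 84 and CCl4 replicate 1 of that day, and slide 3 held the other CCl4 rats of day 84. The arrays of slide 3 were scanned on another day than all others. The hepatocyte markers were abundant in every group. Their summed level (8 genes, linear, in units of the 75th percentile) ran from 8443 to 8650 in controls, 6671 to 6837 with DEN and 3526 to 4774 with CCl4 at day 28, and at day 84 from 6906 to 7117 in controls, 3625 to 4453 with DEN and 4078 to 5406 with CCl4. All 8 fell with CCl4 at day 28 and with both compounds at day 84, and 1 of 8 fell with DEN at day 28; under spike-in scaling 0, 2, 1 and 1 of the 8 fell (DEN and CCl4 at day 28, DEN and CCl4 at day 84) and none rose. The summed stellate cell and myofibroblast markers (6 genes) ran from 23.5 to 42.3 in controls, 39.3 to 45.4 with DEN and 82.3 to 151.0 with CCl4 at day 28, and from 17.4 to 21.2, 27.6 to 32.9 and 89.4 to 145.6 at day 84. The summed cholangiocyte markers (5 of 6 genes tested) ran from 1.71 to 2.28, 2.1 to 2.73 and 2.37 to 6.11 in the same groups at day 28, and from 1.39 to 1.69 in controls, 4.49 to 7.76 with DEN and 6.68 to 9.18 with CCl4 at day 84. Fewer hepatocytes and less RNA per hepatocyte cannot be told apart in whole liver, and the part of cell makeup in the results below was not tested.

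At day 28 every called cholesterol gene was lower than in controls. With DEN, 12 of 31 fell and 0 rose, where 7.19% of all genes tested fell and 7.82% rose. With CCl4, 24 fell and 0 rose, against 33.6% and 26.1% of all genes. At day 84 the compounds parted. With DEN, 19 fell and 3 rose, among the latter Abcg8, which passed the filter only through this group (all genes: 31.1% and 21.6%), and with CCl4, 9 rose and 7 fell (all genes: 28.0% and 36.3%). The median log2 fold change of the 31 was -0.53 (DEN) and -0.78 (CCl4) at day 28 and became -0.46 and -0.11 by day 84, beside -0.04, -0.06, -0.08 and -0.10 over all genes. Scaled to the spike-in probes, 3 were higher and 1 lower with DEN at day 28, where 32.6% of all genes were higher and 0.641% lower. The split became 9 and 4 with CCl4 at day 28 (all genes: 74.3% and 4.60%), 13 and 3 with DEN at day 84 (68.7% and 2.68%) and 17 and 7 with CCl4 at day 84 (53.8% and 6.63%). On that scale the median of all genes moved to 0.36, 0.74, 0.63 and 0.45 and that of the 31 to -0.13, 0.02, 0.24 and 0.44. Under quantile normalization CCl4 at day 84 gave 15 higher and 7 lower, where 3395 of all 10914 genes were higher and 3260 lower. The DEN and CCl4 comparisons of a day share their controls.

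**Figure D1:**
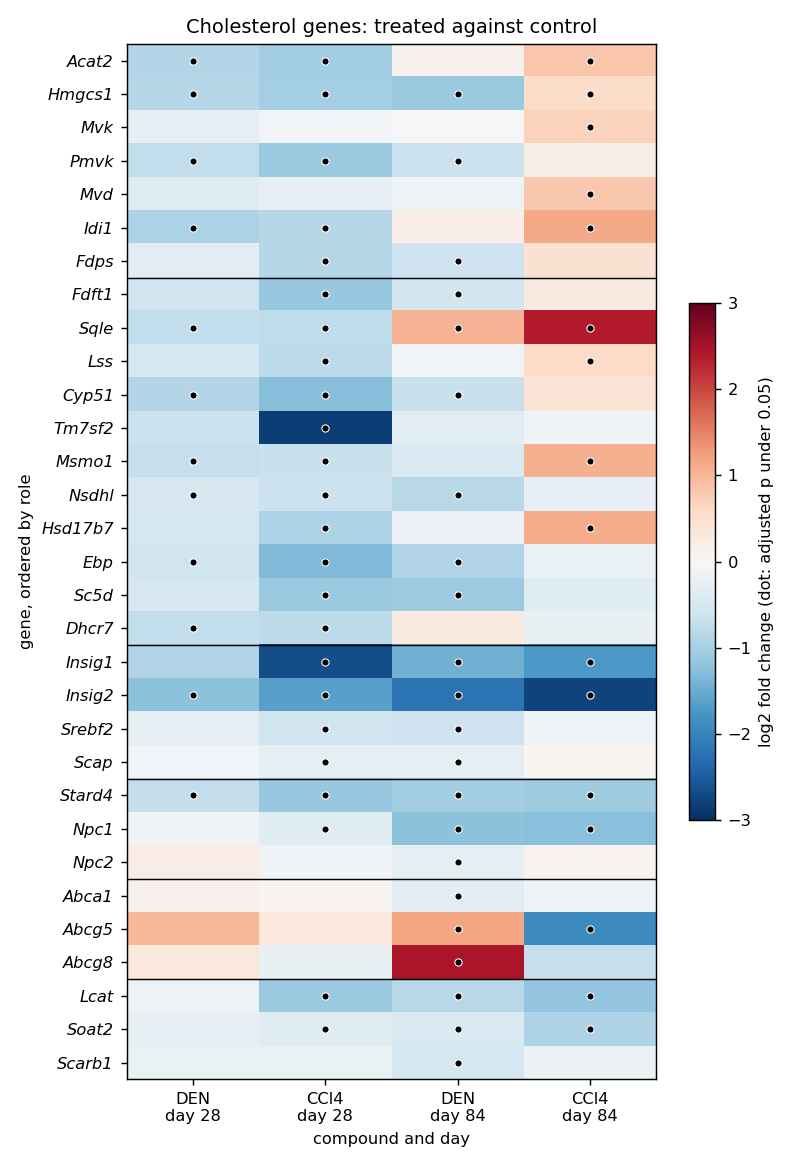
Log2 fold changes of the 31 genes (rows, ordered by role and divided by lines) in the 4 comparisons with the controls of the same day (columns), on a colour scale from -3 to 3 relative to each array's 75th percentile; a dot marks an adjusted p under 0.05. Both day 28 columns are almost wholly on the lower side, and the CCl4 column of day 84 has 9 synthesis enzymes on the higher side above Insig1 and Insig2 on the lower side; under spike-in scaling 9 of the day 28 CCl4 calls and 10 of the day 84 DEN calls change sign.

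Of the 18 synthesis enzymes, 10 fell with DEN at day 28 and 16 with CCl4, and none rose. Of all genes 7.19% fell and 7.82% rose with DEN there, and 33.6% fell and 26.1% rose with CCl4. At day 84, 8 fell and 1 rose with DEN, and 9 rose and 0 fell with CCl4. The shares of all genes at day 84 were 31.1% lower and 21.6% higher with DEN, and 36.3% and 28.0% with CCl4. With DEN at day 84 the other members of the set gave 11 falls and 2 rises. Abcg8, 1 of these 2, passed the filter only through that group. With CCl4 at day 84 the other members gave 7 falls and 0 rises. Against the spike-in probes the DEN counts were 0 at day 28 and 8 higher and 1 lower at day 84, and the CCl4 counts were 2 higher and 2 lower at day 28 and 13 higher and 0 lower at day 84. On that scale 32.6% of all genes were higher and 0.641% lower with DEN at day 28, and 68.7% and 2.68% at day 84. With CCl4 the shares were 74.3% and 4.60% at day 28 and 53.8% and 6.63% at day 84. All 18 enzyme means were lower in the controls of day 84 than in those of day 28, with 5 called (all genes: 5.32% lower). Set against the controls of day 28, the median of the 18 enzyme means at day 28 was -0.62 (DEN) and -0.89 (CCl4), and it was -0.60 in controls, -0.93 with DEN and -0.17 with CCl4 at day 84. The 2 control groups lay on different slides, so day and slide cannot be told apart between them.

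**Figure D2:**
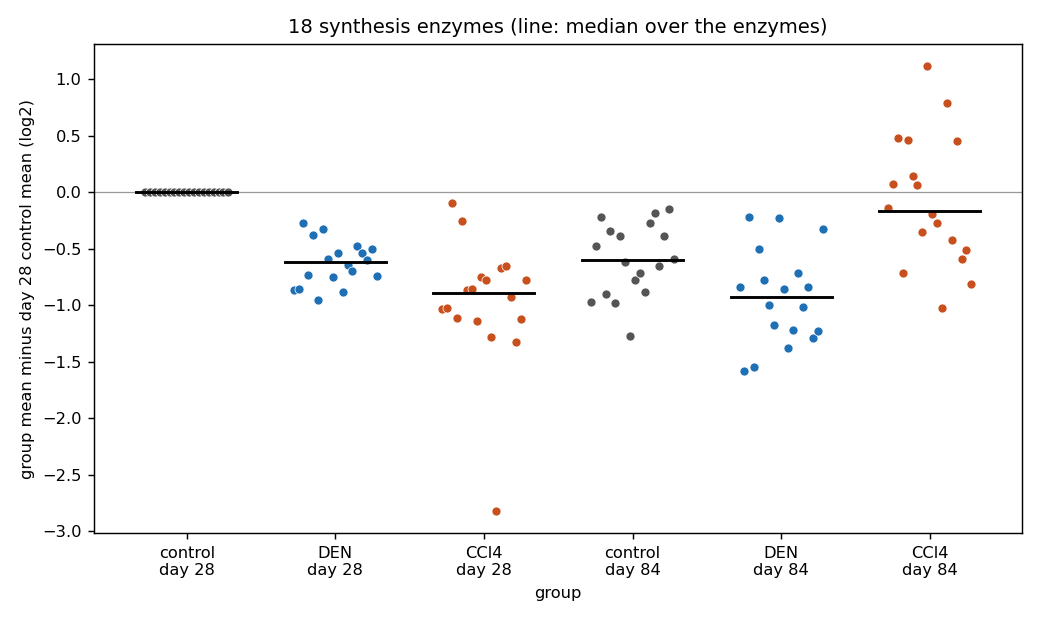
Group means of the 18 synthesis enzymes (points, in pathway order from left to right) minus each enzyme's mean in the controls of day 28, in log2, for the 6 groups of 3 rats; black lines are medians over the enzymes. The controls of day 84 lie below those of day 28 (median -0.60), and the CCl4 group of day 84 (median -0.17) lies nearest to the controls of day 28; control groups of the 2 days were on different slides.

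The mevalonate segment runs from acetyl-CoA to farnesyl diphosphate. Hmgcs1, the cytosolic synthase that forms HMG-CoA, lay at 7.66, 7.13 and 7.19 in controls, 6.41, 6.53 and 6.46 with DEN and 6.57, 5.88 and 6.45 with CCl4 at day 28. The DEN and CCl4 rats were all below the controls, by -0.86 ± 0.18 (adjusted p = 0.007) and -1.02 ± 0.18 (adjusted p = 0.000267). At day 84 it lay at 6.91, 6.98 and 6.66 in controls, 6.05, 5.60 and 5.58 with DEN and 7.35, 7.42 and 7.42 with CCl4. Here the DEN rats were all below the controls and the CCl4 rats all above. DEN lowered it by -1.11 ± 0.18 (adjusted p = 0.000227), and CCl4 raised it by 0.55 ± 0.18 (adjusted p = 0.0165), a call lost in some fits that left out 1 array. Acat2, the thiolase that condenses acetyl-CoA at the head of the pathway, lay at 5.10, 4.28 and 4.89 in controls, 3.70, 3.86 and 4.11 with DEN and 4.07, 3.42 and 3.67 with CCl4 at day 28. Both treated groups were below every control, by -0.87 ± 0.21 with DEN and -1.04 ± 0.21 with CCl4. At day 84 its values were 3.78, 3.83 and 3.73 in controls, 4.16, 4.03 and 3.56 with DEN and 4.73, 4.67 and 4.44 with CCl4. The DEN values overlapped the controls there (0.14 ± 0.21, adjusted p = 0.608), and the CCl4 values were all above them (0.83 ± 0.21, adjusted p = 0.00346). Under spike-in scaling the DEN difference of day 84 was called higher.

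Mvk and Pmvk phosphorylate mevalonate in turn, and Mvd decarboxylates the product. Mvk lay at 1.26, 1.0 and 0.92 in controls, 0.79, 0.74 and 0.82 with DEN and 1.19, 0.93 and 0.77 with CCl4 at day 28 and at 0.90, 0.77 and 0.86 in controls, 0.93, 0.94 and 0.63 with DEN and 1.43, 1.68 and 1.50 with CCl4 at day 84. The CCl4 rats of day 84 were above every control (0.70 ± 0.12, adjusted p = 0.000183). At day 28 the DEN rats were all below the controls and the CCl4 rats overlapped them, with differences of -0.28 ± 0.12 and -0.09 ± 0.12, neither called. Mvd lay at 2.82, 2.20 and 2.54 in controls, 2.07, 2.12 and 2.23 with DEN and 2.39, 2.19 and 2.22 with CCl4 at day 28 and 2.17, 2.23 and 2.13 in controls, 2.26, 1.99 and 1.81 with DEN and 3.0, 2.99 and 2.94 with CCl4 at day 84. Its rise with CCl4 at day 84 was 0.80 ± 0.13 (adjusted p = 0.000139), the smallest adjusted p of the segment in that comparison, and its day 28 differences were -0.38 ± 0.13 and -0.26 ± 0.13, neither called. Under spike-in scaling Mvk and Mvd were both called higher with CCl4 at day 28 and with DEN at day 84. Pmvk behaved otherwise. It lay at 4.38, 3.95 and 4.56 in controls, 3.46, 3.62 and 3.62 with DEN and 3.50, 2.88 and 3.17 with CCl4 at day 28, with both treated groups below the controls (-0.73 ± 0.16 with DEN, adjusted p = 0.00856, and -1.11 ± 0.16 with CCl4, adjusted p = 4.90e-05). Its day 84 values of 3.34, 3.41 and 3.43 in controls, 2.93, 2.70 and 2.62 with DEN and 3.66, 3.67 and 3.42 with CCl4 put DEN below the controls (-0.64 ± 0.16, adjusted p = 0.00429) and CCl4 across their range (0.19 ± 0.16, adjusted p = 0.308). Against the spike-in probes the DEN difference of day 84 was 0.062.

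Idi1 interconverts the isoprene units, and Fdps joins them into farnesyl diphosphate. Idi1 lay at 3.90, 3.07 and 3.40 in controls, 2.33, 2.52 and 2.67 with DEN and 2.89, 2.19 and 2.71 with CCl4 at day 28. All treated rats were below all controls, with falls of -0.95 ± 0.21 (DEN, adjusted p = 0.00929) and -0.86 ± 0.21 (CCl4, adjusted p = 0.00299). By day 84 it lay at 2.57, 2.41 and 2.45 in controls, 2.88, 2.85 and 2.33 with DEN and 3.72, 3.50 and 3.58 with CCl4. DEN overlapped the controls (0.21 ± 0.21, adjusted p = 0.425) and CCl4 was above them (1.13 ± 0.21, adjusted p = 0.000361). Under spike-in scaling the DEN difference of Idi1 at day 84 was 0.91 and called higher. Fdps lay at 7.40, 6.98 and 7.10 in controls, 6.65, 6.84 and 7.01 with DEN and 6.72, 5.99 and 6.21 with CCl4 at day 28 and at 6.83, 6.73 and 6.77 in controls, 6.53, 6.15 and 5.80 with DEN and 7.29, 7.32 and 7.05 with CCl4 at day 84. The DEN rats overlapped the controls at day 28 (-0.32 ± 0.19, not called) and fell below them at day 84 (-0.61 ± 0.19, adjusted p = 0.0164; 0.0889 under spike-in scaling). With CCl4 the gene fell at day 28 (-0.85 ± 0.19, adjusted p = 0.00173), and the day 84 difference of 0.45 ± 0.19 had an adjusted p of 0.0561 although all 3 rats were above the controls.

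Fdft1 makes squalene, Sqle oxidises it in the step that limits the later pathway, and Lss closes the ring to lanosterol. Sqle moved further between the days than any other enzyme, with both compounds. It lay at 3.43, 2.53 and 2.84 in controls, 1.96, 2.14 and 2.45 with DEN and 2.44, 2.14 and 1.96 with CCl4 at day 28, with every treated rat below every control, and the falls were -0.75 ± 0.23 with DEN (adjusted p = 0.0449) and -0.75 ± 0.23 with CCl4 (adjusted p = 0.0126). Under spike-in scaling the CCl4 difference of day 28 was 0.0475. At day 84 it lay at 1.76, 1.39 and 1.82 in controls, 2.95, 2.90 and 2.26 with DEN and 4.17, 4.10 and 3.87 with CCl4. Now every treated rat was above every control, by 1.04 ± 0.23 with DEN (adjusted p = 0.00213) and by 2.39 ± 0.23 with CCl4 (adjusted p = 1.69e-06), a 5.23-fold rise. The mean of the controls was lower at day 84 than at day 28 by -1.27 ± 0.23 (adjusted p = 0.00403; not called with slide as a block, adjusted p = 0.31). Sqle was the single enzyme that rose with DEN at day 84.

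Fdft1 lay at 4.53, 4.08 and 4.14 in controls, 3.50, 3.64 and 3.83 with DEN and 3.52, 2.55 and 3.23 with CCl4 at day 28 and at 3.71, 3.64 and 3.55 in controls, 3.26, 2.98 and 2.98 with DEN and 4.08, 3.92 and 3.67 with CCl4 at day 84. Both treated groups were below the controls at day 28, called with CCl4 (-1.14 ± 0.20, adjusted p = 0.000259) and not with DEN (-0.59 ± 0.20, adjusted p = 0.0629). At day 84 it fell with DEN (-0.56 ± 0.20, adjusted p = 0.0318; 0.14 under spike-in scaling), and the CCl4 rats overlapped the controls (0.26 ± 0.20, not called). Lss lay at 3.53, 3.06 and 3.63 in controls, 2.79, 2.80 and 3.04 with DEN and 2.94, 2.33 and 2.63 with CCl4 at day 28 and at 2.70, 2.67 and 2.52 in controls, 2.80, 2.60 and 2.25 with DEN and 3.42, 3.28 and 2.93 with CCl4 at day 84. It fell with CCl4 at day 28 (-0.77 ± 0.19, adjusted p = 0.00291; 0.0265 under spike-in scaling) and rose at day 84 (0.58 ± 0.19, adjusted p = 0.0151), a call lost in some fits without 1 array, while its DEN differences of -0.53 ± 0.19 and -0.08 ± 0.19 were not called.

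Cyp51 and Tm7sf2 work next, demethylating lanosterol and reducing the double bond this leaves. Cyp51 lay at 4.67, 4.25 and 4.50 in controls, 3.27, 3.59 and 3.93 with DEN and 3.56, 2.64 and 3.39 with CCl4 at day 28. Its falls were -0.88 ± 0.21 with DEN (adjusted p = 0.0155) and -1.28 ± 0.21 with CCl4 (adjusted p = 0.000175), without overlap. The day 84 rats lay at 3.83, 3.79 and 3.67 in controls, 3.35, 3.05 and 2.89 with DEN and 4.29, 4.22 and 4.10 with CCl4. DEN rats remained below the controls (-0.67 ± 0.21, adjusted p = 0.0182; 0.036 under spike-in scaling), and CCl4 rats were all above them with a difference of 0.44 ± 0.21 that was not called (adjusted p = 0.0886). Tm7sf2 had the largest difference of all 31 genes at day 28. It lay at 6.01, 5.83 and 6.34 in controls, 5.0, 5.53 and 5.73 with DEN and 3.71, 2.22 and 3.79 with CCl4. The CCl4 rats were far below the controls and the DEN rats, and replicate 2 was the lowest by more than the distance between the other rats of its group. The fall was -2.82 ± 0.32 (adjusted p = 7.86e-06), 7.06-fold, while the DEN difference of -0.64 ± 0.32 was not called. By day 84, at 5.05, 5.22 and 5.26 in controls, 5.0, 4.68 and 4.83 with DEN and 5.22, 5.10 and 4.79 with CCl4, neither compound differed from the controls by a called amount (DEN -0.34 ± 0.32; CCl4 -0.14 ± 0.32, 95% interval -0.83 to 0.56).

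Msmo1, Nsdhl and Hsd17b7 remove methyl groups from the sterol ring. Msmo1 lay at 7.19, 6.14 and 6.73 in controls, 5.89, 5.99 and 6.09 with DEN and 6.36, 5.61 and 6.08 with CCl4 at day 28 and at 6.43, 6.32 and 6.51 in controls, 6.24, 5.85 and 5.81 with DEN and 7.43, 7.45 and 7.55 with CCl4 at day 84. It fell with DEN and CCl4 at day 28 (-0.70 ± 0.22, adjusted p = 0.0472, and -0.67 ± 0.22, adjusted p = 0.0175), though CCl4 replicate 1 lay above control replicate 2 and without control replicate 1 the values were -0.45 and -0.42, not called, and the CCl4 value became 0.13 under spike-in scaling. With CCl4 at day 84 all rats were above the controls (1.06 ± 0.22, adjusted p = 0.000835), and the DEN difference of -0.45 ± 0.22 was not called. Hsd17b7 lay at 1.24, 0.25 and 0.66 in controls, 0.09, 0.27 and 0.19 with DEN and 0.17, -0.59 and -0.19 with CCl4 at day 28 and at 0.08, -0.03 and 0.13 in controls, 0.00, -0.05 and -0.31 with DEN and 1.21, 1.26 and 1.05 with CCl4 at day 84. The gene fell with CCl4 at day 28 (-0.93 ± 0.21, adjusted p = 0.0018) and rose at day 84 (1.11 ± 0.21, adjusted p = 0.000396), and neither DEN difference was called (-0.54 ± 0.21 and -0.18 ± 0.21). Nsdhl lay at 4.92, 4.56 and 4.78 in controls, 4.29, 4.21 and 4.34 with DEN and 4.38, 3.88 and 4.05 with CCl4 at day 28 and at 4.57, 4.55 and 4.59 in controls, 3.87, 3.62 and 3.70 with DEN and 4.38, 4.39 and 4.23 with CCl4 at day 84. It had the smallest adjusted p of this segment with DEN at day 84 (-0.84 ± 0.12, adjusted p = 6.85e-05). That fall was not called under spike-in scaling. Nsdhl also fell at day 28 with DEN (-0.47 ± 0.12) and CCl4 (-0.65 ± 0.12; 0.15 under spike-in scaling), and with CCl4 at day 84 the difference was -0.24 ± 0.12 (adjusted p = 0.0867).

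Late in the pathway Ebp shifts a double bond, Sc5d adds one and Dhcr7 reduces one. Ebp fell with DEN at both days (-0.60 ± 0.19 and -0.90 ± 0.19) and with CCl4 at day 28 (-1.32 ± 0.19, adjusted p = 4.59e-05), and its CCl4 difference at day 84 was -0.20 ± 0.19, not called. Sc5d followed Ebp at day 84 with DEN (-1.08 ± 0.18, adjusted p = 0.000301) and at day 28 with CCl4 (-1.12 ± 0.18, adjusted p = 0.000141). Under spike-in scaling neither gene was called lower with DEN, and Sc5d lay at -0.38 with DEN at day 84. Dhcr7, which makes cholesterol from its last precursor on 1 branch of the pathway, lay at 5.07, 4.68 and 4.90 in controls, 3.97, 4.0 and 4.44 with DEN and 4.39, 3.73 and 4.20 with CCl4 at day 28 and at 4.34, 4.36 and 4.18 in controls, 4.70, 4.94 and 4.03 with DEN and 4.06, 4.13 and 4.03 with CCl4 at day 84. Both treated groups were below the controls at day 28 (-0.75 ± 0.21 with DEN and -0.78 ± 0.21 with CCl4, the latter 0.0248 under spike-in scaling). At day 84 neither difference was called (DEN 0.26 ± 0.21, 95% interval -0.19 to 0.72; CCl4 -0.22 ± 0.21, 95% interval -0.68 to 0.24), so that with CCl4 Tm7sf2, Nsdhl, Ebp, Sc5d and Dhcr7 had fitted values under 0 where 9 other enzymes rose. Against the spike-in probes these 5 lay above 0.

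Of the brakes on SREBP2, Insig1 and Insig2 lay lower with both compounds at both days, also in the CCl4 rats of day 84, where 9 enzymes rose. Insig2, the isoform whose gene is not an SREBP2 target, was called lower in all 4 comparisons. It lay at 5.52, 5.33 and 5.13 in controls, 4.10, 4.06 and 4.13 with DEN and 3.91, 3.04 and 4.16 with CCl4 at day 28. Every treated rat was below every control, by -1.23 ± 0.22 with DEN (adjusted p = 0.00289) and -1.63 ± 0.22 with CCl4 (adjusted p = 3.52e-05). The day 84 values were 4.96, 5.18 and 4.74 in controls, 2.90, 2.48 and 2.85 with DEN and 2.18, 2.03 and 2.34 with CCl4. The gap was wider there: -2.22 ± 0.22 with DEN (adjusted p = 5.25e-06) and -2.78 ± 0.22 with CCl4 (adjusted p = 3.49e-07), a 6.85-fold fall. Against the spike-in probes Insig2 also lay lower in the 4 comparisons (-0.83, -0.83, -1.51 and -2.23).

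Insig1, itself an SREBP2 target, lay at 8.49, 7.82 and 8.61 in controls, 7.11, 7.45 and 7.63 with DEN and 5.86, 5.02 and 6.04 with CCl4 at day 28. With CCl4 it fell by -2.67 ± 0.30 (adjusted p = 7.20e-06), 6.36-fold, and the CCl4 rats were below the DEN rats as well as the controls. The DEN rats were all below the controls by -0.91 ± 0.30, not called (adjusted p = 0.0561). In the rats of day 84 it lay at 7.16, 7.50 and 7.69 in controls, 5.91, 5.80 and 6.35 with DEN and 6.28, 5.37 and 5.50 with CCl4. Both treated groups were below the controls, with falls of -1.43 ± 0.30 with DEN (adjusted p = 0.00142) and -1.73 ± 0.30 with CCl4 (adjusted p = 0.000201). Under spike-in scaling the DEN fall of day 84 was not called. The CCl4 falls of both days still were (-1.87 at day 28). In the CCl4 rats of day 84, then, Insig1 was lower while 9 enzymes were higher. Srebf2 fell with CCl4 at day 28 (-0.60 ± 0.10, adjusted p = 0.000154; 0.20 under spike-in scaling) and with DEN at day 84 (-0.63 ± 0.10, adjusted p = 0.000176; 0.076). Its differences with DEN at day 28 (-0.27 ± 0.10) and with CCl4 at day 84 (-0.13 ± 0.10) were not called. Scap lay at 3.65, 3.56 and 3.84 in controls, 3.55, 3.59 and 3.68 with DEN and 3.52, 3.36 and 3.36 with CCl4 at day 28 and at 3.65, 3.61 and 3.56 in controls, 3.36, 3.24 and 3.35 with DEN and 3.67, 3.82 and 3.53 with CCl4 at day 84. Its changes were the smallest called among these regulators, -0.27 ± 0.09 with CCl4 at day 28 and -0.29 ± 0.09 with DEN at day 84, and both turned to higher values against the spike-in probes (0.53 and 0.41).

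**Figure D3:**
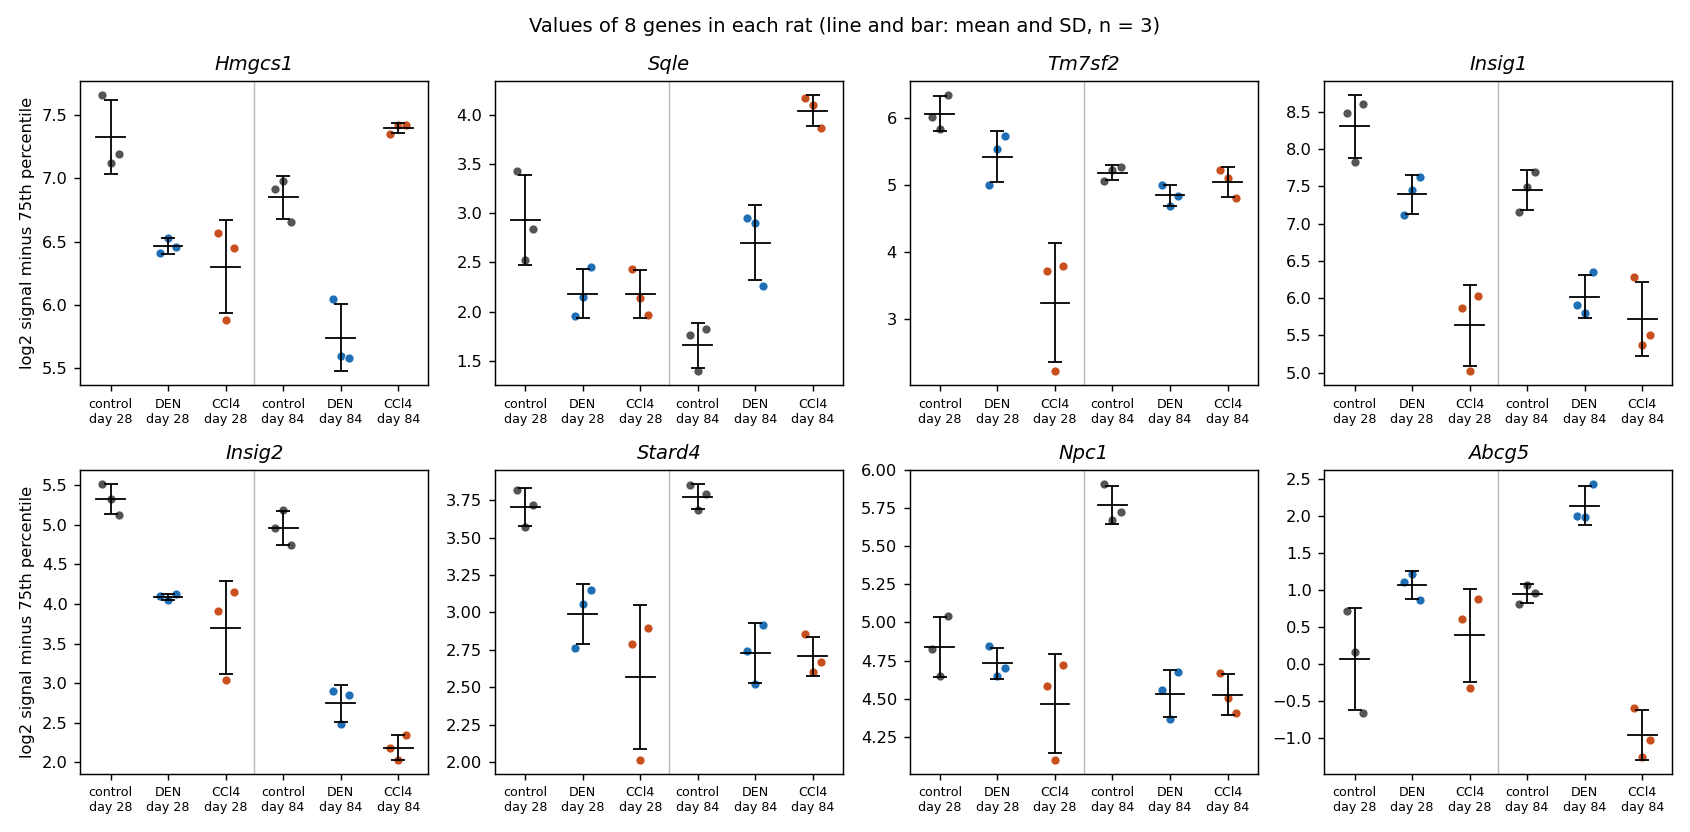
Levels of 8 genes in each of the 18 rats (points, log2 processed signal minus the array's 75th percentile; each panel has its own axis), by group, with mean and SD of 3 rats; the grey line parts day 28 from day 84. Hmgcs1 and Sqle are high in the CCl4 rats of day 84, where Insig1, Insig2, Stard4, Npc1 and Abcg5 are low, and Tm7sf2 is lowest in the CCl4 rats of day 28.

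Among the genes that move cholesterol inside the cell, Stard4 fell at both days and Npc1 by more at day 84. Stard4, a cytosolic sterol carrier and SREBP2 target, lay at 3.82, 3.57 and 3.72 in controls, 2.76, 3.06 and 3.15 with DEN and 2.79, 2.02 and 2.89 with CCl4 at day 28 and at 3.85, 3.68 and 3.79 in controls, 2.75, 2.52 and 2.92 with DEN and 2.85, 2.60 and 2.67 with CCl4 at day 84. No treated rat reached a control at either day. DEN lowered it by -0.71 ± 0.19 (adjusted p = 0.0224) and -1.04 ± 0.19 (adjusted p = 0.000463), and CCl4 by -1.14 ± 0.19 (adjusted p = 0.000153) and -1.07 ± 0.19 (adjusted p = 0.000217). Under spike-in scaling its day 28 values were -0.31 with DEN and -0.34 with CCl4, neither called. With DEN at day 84 Stard4 then lay at -0.34 and Npc1 at -0.54, and 1 of the 2 was called lower. The CCl4 value of Stard4 at day 84 was -0.52 and still called. Npc1, the membrane protein that passes cholesterol out of lysosomes, lay at 4.83, 4.65 and 5.04 in controls, 4.84, 4.65 and 4.70 with DEN and 4.58, 4.10 and 4.72 with CCl4 at day 28. Treated rats overlapped the controls then, with a called fall for CCl4 (-0.37 ± 0.15, adjusted p = 0.0439) that became 0.43 under spike-in scaling. This call was lost in 3 of 6 fits without 1 array, and without CCl4 replicate 2 the value was -0.19 (adjusted p = 0.24). The later rats, of day 84, had values of 5.91, 5.67 and 5.72 in controls, 4.55, 4.37 and 4.67 with DEN and 4.67, 4.50 and 4.40 with CCl4. All treated rats were below all controls, by -1.24 ± 0.15 with DEN (adjusted p = 2.06e-05) and -1.24 ± 0.15 with CCl4 (adjusted p = 8.98e-06). The controls themselves stood higher at day 84 than at day 28 by 0.93 ± 0.15 (adjusted p = 0.0019; 0.297 with slide as a block). Npc2, its soluble partner, lay at 3.48, 3.41 and 3.70 in controls, 3.79, 3.66 and 3.79 with DEN and 3.56, 3.32 and 3.39 with CCl4 at day 28 and at 3.43, 3.60 and 3.44 in controls, 3.32, 3.09 and 3.26 with DEN and 3.60, 3.54 and 3.64 with CCl4 at day 84. Npc2 fell with DEN at day 84 by -0.27 ± 0.09 (adjusted p = 0.0279; 0.44 under spike-in scaling), and its other differences from control were not called.

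Among the export genes, Abcg5 rose with DEN and fell with CCl4 at day 84. Abcg5, which with Abcg8 forms the pump that moves sterols into bile, lay at 0.71, 0.16 and -0.66 in controls, 1.11, 1.22 and 0.86 with DEN and 0.60, -0.32 and 0.88 with CCl4 at day 28. DEN rats were above the controls and CCl4 rats overlapped them, and neither difference was called (0.99 ± 0.33 and 0.32 ± 0.33). Under spike-in scaling both were called higher at day 28 (1.397, adjusted p = 0.00572, and 1.12, adjusted p = 0.00418). After 84 days it lay at 0.81, 1.06 and 0.96 in controls, 1.99, 1.98 and 2.43 with DEN and -0.60, -1.26 and -1.03 with CCl4. The DEN rats were all above the controls (1.19 ± 0.33, adjusted p = 0.00751, 2.28-fold) and the CCl4 rats all below (-1.91 ± 0.33, adjusted p = 0.000171, 3.75-fold). Under spike-in scaling the day 84 values were 1.89 and -1.36. Abcg8 lay at -5.76, -6.0 and -5.92 in controls, -3.17, -3.13 and -4.02 with DEN and -6.76, -6.40 and -6.60 with CCl4 at day 84, where only the DEN rats were well above background. It was at least 1.25-fold higher with DEN than in controls and at least 1.86-fold higher than with CCl4, taking for each dim array the higher of its own signal and the lowest signal well above background (adjusted p = 0.000242 and 7.24e-05). It passed the filter on dim probes only through the DEN rats of day 84, so these p-values are no support for the difference. At day 28 Abcg8 was not well above background in any group (-5.06, -5.68 and -6.0 in controls, -4.75, -5.10 and -5.91 with DEN and -6.24, -6.40 and -4.76 with CCl4). Abca1, which loads cholesterol onto apolipoprotein A-I, lay at 1.84, 1.90 and 2.0 in controls, 1.95, 2.05 and 2.17 with DEN and 2.18, 1.91 and 1.93 with CCl4 at day 28 and at 2.02, 2.11 and 2.02 in controls, 1.72, 1.53 and 1.85 with DEN and 1.87, 2.07 and 1.88 with CCl4 at day 84. It fell with DEN at day 84 (-0.35 ± 0.10, adjusted p = 0.00888; 0.35 under spike-in scaling), and its 3 other differences from control, between -0.11 and 0.14, were not called. Under spike-in scaling these 3 were called higher (day 28: DEN 0.55, CCl4 0.89; day 84: CCl4 0.44). In the DEN rats of day 84 the pancreatic marker Cpa1 was also raised. Its signal was not well above background on all arrays of the controls, so no fold or p-value is given. It was 1 of 2 pancreatic acinus genes tested from a list of 3. Under spike-in scaling the other lay at 0.96 and was not called. What part this had in the Abcg5 and Abcg8 values was not tested.

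Lcat, Soat2 and Scarb1 handle cholesteryl esters and HDL. Lcat, secreted by hepatocytes to esterify cholesterol on HDL, lay at 7.18, 7.08 and 7.23 in controls, 7.02, 7.01 and 7.03 with DEN and 6.19, 5.48 and 6.46 with CCl4 at day 28 and at 7.16, 7.17 and 7.03 in controls, 6.31, 5.92 and 6.61 with DEN and 5.86, 6.09 and 5.89 with CCl4 at day 84. The CCl4 rats were below the controls at both days (-1.12 ± 0.20, adjusted p = 0.000286, and -1.17 ± 0.20, adjusted p = 0.000168), and the DEN rats were called lower at day 84 (-0.84 ± 0.20, adjusted p = 0.00315) and not at day 28 (-0.15 ± 0.20). Under spike-in scaling the CCl4 fall of day 28 (-0.32) and the DEN fall of day 84 (-0.14) were not called. The CCl4 fall of day 84 (-0.62) still was. Soat2, which esterifies cholesterol for lipoproteins, lay at 1.21, 1.27 and 0.99 in controls, 0.88, 0.88 and 0.99 with DEN and 0.98, 0.69 and 0.68 with CCl4 at day 28 and at 1.63, 1.53 and 1.45 in controls, 1.02, 1.22 and 1.0 with DEN and 0.37, 0.73 and 0.73 with CCl4 at day 84. Its largest fall was with CCl4 at day 84 (-0.93 ± 0.12, adjusted p = 1.35e-05), and the falls of -0.37 ± 0.12 with CCl4 at day 28 and -0.46 ± 0.12 with DEN at day 84 turned to 0.43 and 0.24 under spike-in scaling. Scarb1, the HDL receptor, lay at 2.96, 2.95 and 3.26 in controls, 2.79, 2.84 and 2.95 with DEN and 2.91, 2.95 and 2.68 with CCl4 at day 28 and at 3.20, 3.25 and 3.17 in controls, 2.64, 2.61 and 2.77 with DEN and 2.95, 3.17 and 2.95 with CCl4 at day 84. It fell with DEN at day 84 by -0.54 ± 0.10 (adjusted p = 0.000561), which became 0.16 under spike-in scaling. Its other differences from control, from -0.21 to -0.18, were not called. Under spike-in scaling the CCl4 difference of day 28 was called higher (0.59). Another Scarb1 probe gave -0.56 with CCl4 at day 84, where this one gave -0.18.

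Set against each other at day 28, CCl4 was lower than DEN for 9 of the 31 genes and higher for 0, where 24.7% of all genes were lower and 20.4% higher. Under spike-in scaling 3 were lower and 2 higher (all genes: 5.80% and 40.4%). The widest gaps were in Tm7sf2 (-2.18 ± 0.32, adjusted p = 0.000143) and Insig1 (-1.76 ± 0.30, adjusted p = 0.000413). The 5 enzymes called were Tm7sf2, Fdps (-0.53 ± 0.19), Fdft1 (-0.56 ± 0.20), Ebp (-0.72 ± 0.19) and Sc5d (-0.62 ± 0.18), and the 4 other genes were Insig1, Lcat (-0.97 ± 0.20), Srebf2 (-0.33 ± 0.10) and Npc2 (-0.32 ± 0.09). Npc2 lay above its control mean with DEN and below it with CCl4, and with Srebf2 it changed sign under spike-in scaling (0.0734 and 0.062). For Hmgcs1, Idi1 and Sqle the differences between the compounds were not called, with 95% intervals of -0.55 to 0.23, -0.36 to 0.54 and -0.50 to 0.49. CCl4 replicate 2 was the lowest rat of its group for 26 of the 31 genes, and without it 4 genes were called. Of all genes 1633 were then higher and 2142 lower, against 2225 and 2693 with all arrays. Without that rat the differences of Fdft1, Ebp, Sc5d and Srebf2 were -0.28, -0.44, -0.36 and -0.22, and of these Ebp was still called. On slide 1 alone, without CCl4 replicate 3, 5 were called, where 2034 of all genes were higher and 2272 lower.

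At day 84 the order turned. CCl4 was higher than DEN for 20 genes and lower for 3, against 18.5% and 15.8% of all genes. Among the 3 was Abcg8, which passed the filter only through the DEN rats of day 84, so its call is no support. Under spike-in scaling 11 were higher and 4 lower (all genes: 8.35% and 15.0%). Slide 2 held a lone CCl4 rat of day 84, so calls from that slide alone are not given for this comparison. Of the 18 enzymes 16 were higher with CCl4, and the rats of the 2 groups did not overlap for those 16, where 25.4% of all genes had all CCl4 rats above all DEN rats and 23.7% all below. The widest gaps among them were in Hmgcs1 (1.66 ± 0.18, adjusted p = 2.16e-05), Msmo1 (1.51 ± 0.22, adjusted p = 0.0002), Sqle (1.34 ± 0.23, adjusted p = 0.000675) and Hsd17b7 (1.30 ± 0.21, adjusted p = 0.000428). The 2 exceptions were Tm7sf2 (95% interval -0.49 to 0.89) and Dhcr7 (-0.94 to -0.02). Srebf2 (0.50 ± 0.10), Scap (0.36 ± 0.09), Npc2 (0.37 ± 0.09) and Scarb1 (0.35 ± 0.10) were the other genes higher with CCl4, and Abcg5 (-3.10 ± 0.33, adjusted p = 1.63e-05), Abcg8 and Soat2 (-0.47 ± 0.12) were lower. Insig1, Insig2, Stard4 and Npc1, low with both compounds, did not differ between them by a called amount, with 95% intervals of -0.95 to 0.35, -1.04 to -0.08, -0.42 to 0.38 and -0.33 to 0.31. For Insig2, however, the CCl4 rats were all below the DEN rats, and under spike-in scaling it was called lower with CCl4 (-0.71, adjusted p = 0.0191). Between these 2 groups the hepatocyte markers differed for 1 of 8 genes, and their summed levels overlapped.

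**Figure D4:**
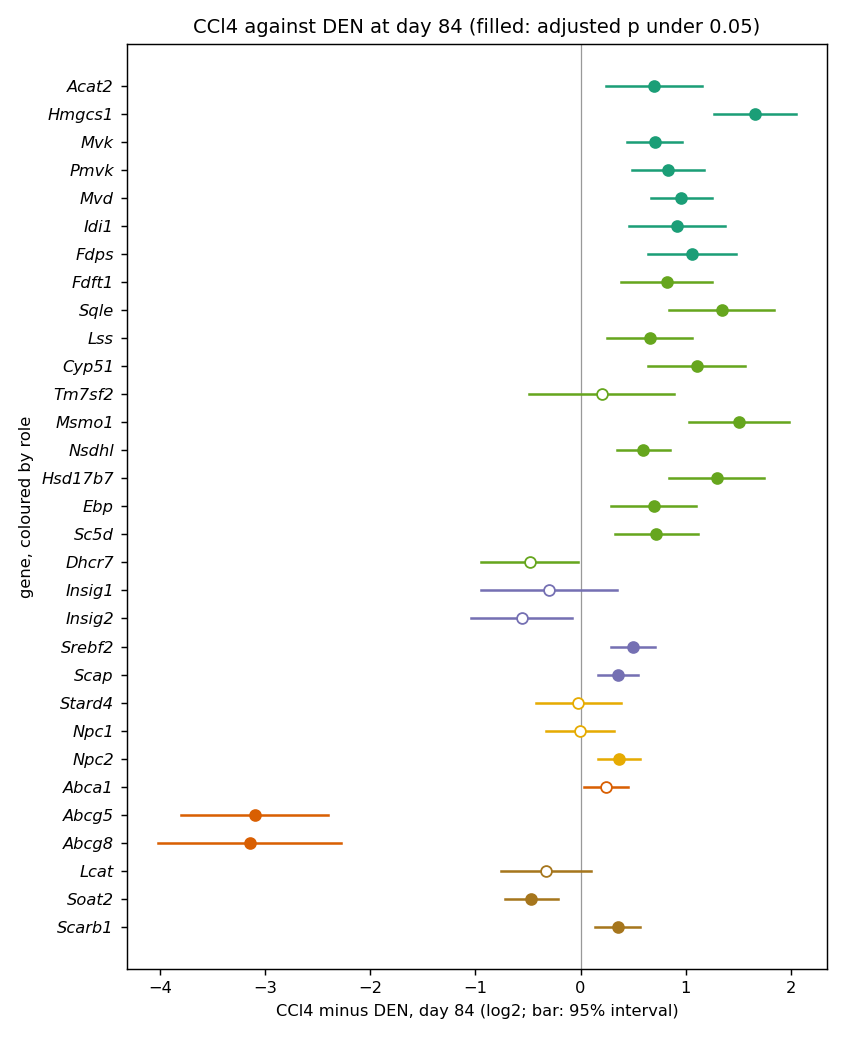
Difference between the CCl4 and DEN groups of day 84 (log2, CCl4 minus DEN, 3 rats each) for the 31 genes in order of role, with 95% intervals; filled points have an adjusted p under 0.05 and colours mark roles. Of the 18 synthesis enzymes at the top, 16 are filled and lie above 0, Abcg5 and Abcg8 lie near -3 (Abcg8 not well above background with CCl4), and under spike-in scaling 11 genes are higher and 4 lower.

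The change of each compound's effect from day 28 to day 84 was tested as its own contrast. For CCl4 it was higher for 15 genes and lower for 3, where 3.51% of all genes were higher and 2.52% lower, and all 15 were synthesis enzymes. Under spike-in scaling 8 were higher, all of them enzymes, and 4 lower (all genes: 0.797% and 1.96%). With slide as a block 12 were higher and 1 lower, where 175 of all 10914 genes were higher and 227 lower. The largest change was in Sqle, at 3.14 ± 0.33 (adjusted p = 0.000649), followed by Tm7sf2 at 2.68 ± 0.46 (adjusted p = 0.00571) and Hsd17b7 at 2.04 ± 0.30 (adjusted p = 0.00284). The enzymes not called were Nsdhl (95% interval 0.05 to 0.77), Sc5d (0.21 to 1.32) and Dhcr7 (-0.09 to 1.21). The 3 genes whose CCl4 effect moved lower were Abcg5 (-2.22 ± 0.46, adjusted p = 0.013), Insig2 (-1.15 ± 0.32) and Npc1 (-0.87 ± 0.21). Of 12 fits without 1 array, 11 lost the call of Insig2, 7 that of Npc1 and 6 that of Ebp. Insig1 moved by 0.94 ± 0.43, not called (adjusted p = 0.213).

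For DEN the change was higher for 5 genes and lower for 4, against 7.64% and 8.41% of all genes, and under spike-in scaling 5 were higher and 0 lower (all genes: 7.10% and 0.706%). Sqle (1.79 ± 0.33, adjusted p = 0.00379), Idi1 (1.16 ± 0.30), Dhcr7 (1.01 ± 0.30) and Acat2 (1.01 ± 0.30) moved higher, with Abcg8, which was well above background in 1 of the 4 groups compared. Npc1 (-1.13 ± 0.21, adjusted p = 0.00407), Insig2 (-0.98 ± 0.32), Abca1 (-0.49 ± 0.14) and Npc2 (-0.48 ± 0.13) moved lower. Sqle and Npc1 were called in every fit that left out 1 array and the 7 others were not. Left out in turn, control replicate 1 or DEN replicate 1, 2 or 3 of day 28 left 3, 5, 5 and 5 calls, and control replicate 1 or 2 or DEN replicate 1 or 2 of day 84 left 5, 3, 4 and 2. Over all genes the fits of day 28 left 678, 668, 610 and 593 higher and 670, 554, 580 and 561 lower. Those of day 84 left 605, 544, 695 and 473 higher and 507, 493, 654 and 401 lower. With all arrays 834 were higher and 918 lower. The comparison of DEN with control at day 28 was as open to single rats: 5 genes were called without control replicate 1, 7 without control replicate 3, 4 without DEN replicate 1 and 7 without DEN replicate 2, and Hmgcs1, Pmvk, Idi1 and Insig2 were called in every such fit. In the same order 617, 801, 434 and 606 of all genes were higher and 502, 518, 266 and 413 lower. With all arrays it was 854 and 785, so calls over all genes dropped too.

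**Figure D5:**
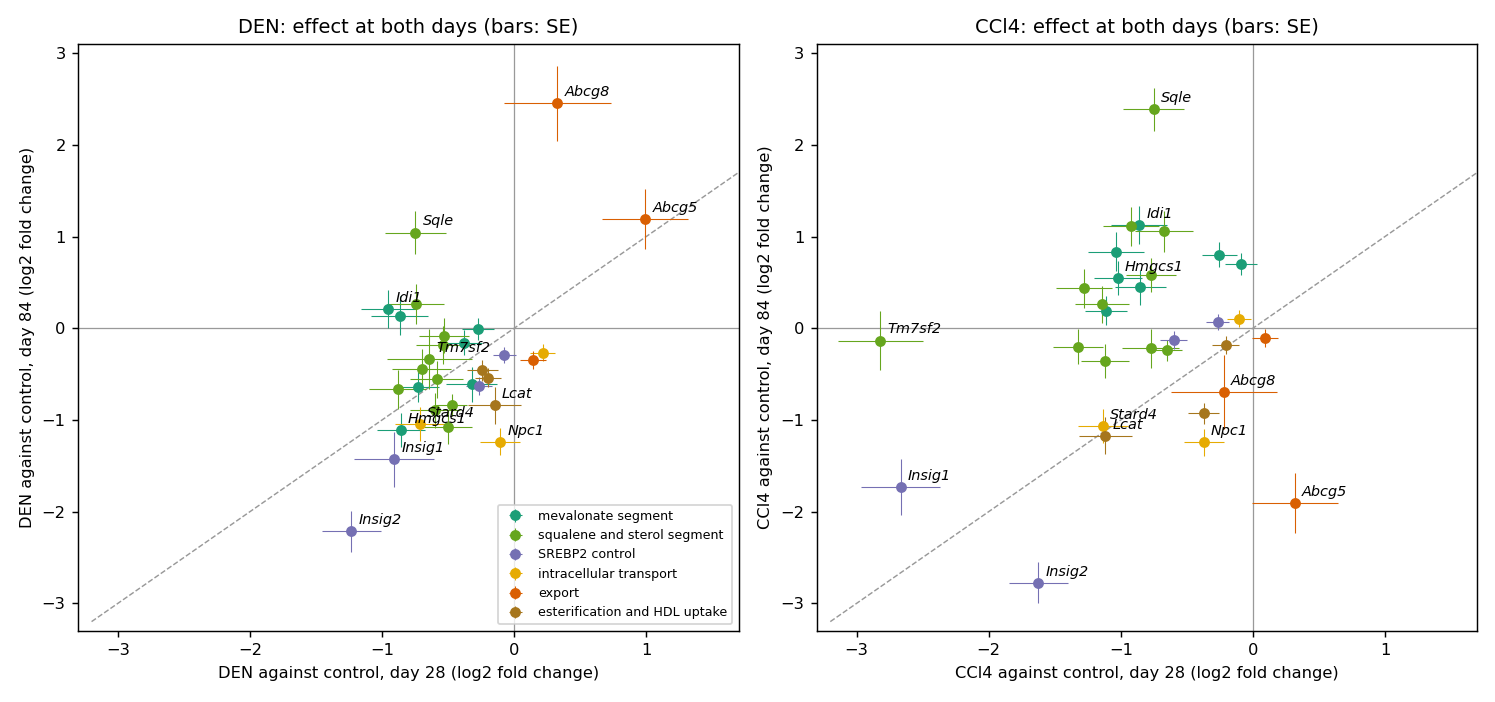
Effect of DEN (left) and CCl4 (right) against the controls of the same day, at day 28 (horizontal axis) and day 84 (vertical axis), in log2 ± SE for the 31 genes, coloured by role; the dashed line marks equal effects. With CCl4 the synthesis enzymes lie left of 0 and, for 13 of 18, above 0, whereas Insig1, Insig2, Stard4 and Lcat lie below 0 on both axes; relative to the spike-in probes 7 of the 18 enzymes lie right of 0 at day 28 with CCl4.

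In controls, day 84 against day 28, 5 genes were lower and 1 higher, against 5.32% and 4.44% of all genes. Sqle (-1.27 ± 0.23), Idi1 (-0.98 ± 0.21, adjusted p = 0.0103), Acat2 (-0.98 ± 0.21, adjusted p = 0.011), Pmvk (-0.90 ± 0.16, adjusted p = 0.00331) and Lss (-0.78 ± 0.19, adjusted p = 0.0193) were lower and Npc1 was higher. Under spike-in scaling 2 were lower and 2 higher (all genes: 1.15% and 3.26%). With slide as a block none of the 6 was called, where 24 of all 10914 genes were higher and 25 lower. Control replicate 2 of day 28 was the lowest of its group for 24 of the 31 genes.

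Other genes of the pathway were taken from 3 lists, whose counts stand beside the shares of all genes given for the same comparisons above: 7.82%, 26.1%, 21.6% and 28.0% rose and 7.19%, 33.6%, 31.1% and 36.3% fell (DEN and CCl4 at day 28, DEN and CCl4 at day 84). With spike-in scaling 32.6%, 74.3%, 68.7% and 53.8% of all genes rose. In a list of SREBP2 processing and sterol sensing genes, with 8 of 11 tested, 0 changed with DEN at day 28, 3 fell with CCl4 at day 28, and 2 fell with each compound at day 84, with none higher; against the spike-in probes none fell and 1, 5, 6 and 5 rose (DEN and CCl4 at day 28, DEN and CCl4 at day 84). Rnf139, a ubiquitin ligase of the endoplasmic reticulum, fell with CCl4 at both days (-0.78 ± 0.14 and -0.61 ± 0.14). Of 9 LXR and oxysterol genes, 2 rose and 1 fell with DEN at day 28, 4 rose and 4 fell with CCl4 at day 28, 2 rose and 4 fell with DEN at day 84, and 4 rose and 4 fell with CCl4 at day 84, and with spike-in scaling 5, 7, 4 and 5 rose and 0, 1, 0 and 0 fell in the same order. Abcg1, an exporter to HDL found largely in macrophages, rose in all 4 (0.85 ± 0.10, 1.20 ± 0.10, 0.56 ± 0.10 and 0.90 ± 0.10). Ch25h, which makes an oxysterol that holds SREBP2 back, rose with CCl4 at day 84 (2.71 ± 0.25, adjusted p = 1.22e-06). Among 13 of 14 lipoprotein and sterol handling genes tested, 3 fell and 1 rose with DEN and 8 fell and 1 rose with CCl4 at day 28, and 9 fell with DEN and 10 fell and 1 rose with CCl4 at day 84; with spike-in scaling 1, 4, 3 and 3 fell and 3, 7, 5 and 4 rose. Apoa4, an apolipoprotein, had the smallest adjusted p of that list in each of the 4 comparisons (-0.87 ± 0.09, -1.89 ± 0.09, -1.62 ± 0.09 and -2.49 ± 0.09).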

How the data were processed

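Liver RNA of 18 rats, with Cy3 as the only dye, was read on 18 Agilent arrays, per the labels. Agilent Feature Extraction, version 10.7.1.1, is named in the submitters' processing notes, and the scanner files the authors deposited hold intensity values per spot: processed (background-corrected) signals and median spot and background signals. The values that the authors deposited for the whole series are on a linear ratio scale, the processed signal over a constant near each array's 75th percentile (100% of probes within 0.01 log2), and served as an alternative. The genome build behind the array design is not given in the sources used here.

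Log2 processed signals, computed here from the deposited intensity values, were scaled by each array's 75th percentile. Probes were named through RefSeq accessions (28206 of 61537 probes, 15645 genes), and 18 probes flagged as outliers on an array were left out. A probe was kept if at least 1 group had it well above background on its 3 arrays, and 1 probe per gene left 10914 genes. One limma 3.58.1 model (R 4.3.3; 12 residual and 14.06 total degrees of freedom) with a mean per group gave 9 comparisons, with Benjamini-Hochberg adjustment over all genes of each. The procedure was tested on simulated data. Groups, replicate numbers and days came from sample titles; the design text gives 28 days, and titles and protocol also give 84. Each array is a different sample by its title, and p-values measure the spread between these samples. The number of arrays limits the precision.

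Members and gene lists were chosen with earlier results of these data known. All 31 members are named; values in every array are given for the 3 largest called changes and the smallest adjusted p of each role in each treated comparison, and for members with a called day or compound difference and effects of opposite sign. Of the other lists, up to 2 genes with the smallest adjusted p are named. Alternatives were normexp background correction (offset 50), testing 15642 genes without the background filter or 9239 with it on every array, median, quantile and 8-probe spike-in scaling, all probes of a gene, slide as a block, a replicate block, only the groups compared, the deposited values, leaving out each array and, chosen after seeing the slides, arrays of 1 slide. Some genes of this pathway are not reported here. Tables and plots used Python 3.11.15, numpy 2.4.6, pandas 2.3.3, matplotlib 3.10.9 and, in R, data.table (version 1.17.8).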

Additional observations from a re-analysis of the deposited data

Results flagged for a closer look

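For 27 of the values above, 1 compound's effect differed between the 2 days by limma's test of the difference itself (adjusted p under 0.05; log2, effect at day 84 minus effect at day 28, ± SE). The DEN and control rats of a day shared a slide, and the CCl4 rats of each day were spread over 2 slides. With slide as a block, 4 genes were higher and 4 lower for DEN, where 905 of all 10914 genes were higher and 1064 lower. For CCl4 that fit rests on replicate 1 alone at day 84, so its calls are not given.

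With CCl4, 15 synthesis enzymes moved toward higher values: Sqle by 3.14 ± 0.33, Tm7sf2 by 2.68 ± 0.46, Hsd17b7 by 2.04 ± 0.30, Idi1 by 1.99 ± 0.30, Acat2 by 1.87 ± 0.30, Msmo1 by 1.73 ± 0.31, Cyp51 by 1.71 ± 0.30 and Hmgcs1 by 1.57 ± 0.26. The smaller changes among them were 1.41 ± 0.29 in Fdft1, 1.35 ± 0.27 in Lss, 1.30 ± 0.23 in Pmvk, 1.30 ± 0.27 in Fdps, 1.12 ± 0.27 in Ebp, 1.06 ± 0.19 in Mvd and 0.79 ± 0.17 in Mvk. Toward lower values moved Abcg5 (-2.22 ± 0.46), Insig2 (-1.15 ± 0.32) and Npc1 (-0.87 ± 0.21). Of 12 fits without 1 array, 11 lost the call of Insig2, 7 that of Npc1 and 6 that of Ebp.

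With DEN, Abcg8 moved by 2.12 ± 0.57, Sqle by 1.79 ± 0.33, Idi1 by 1.16 ± 0.30, Dhcr7 by 1.01 ± 0.30 and Acat2 by 1.01 ± 0.30. Npc1 moved by -1.13 ± 0.21, Insig2 by -0.98 ± 0.32, Abca1 by -0.49 ± 0.14 and Npc2 by -0.48 ± 0.13. The Abcg8 value rests on signals that were well above background in 1 of the 4 groups it compares, so its size is not a measured fold.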

How the results depend on the processing

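Scaling to the spike-in probes, against which the 75th percentile of treated arrays stood higher, changed more signs than any other alternative run. It called 4 genes against 12 for DEN and 13 against 24 for CCl4 at day 28, 5 against 9 between the compounds at day 28, 15 against 23 between them at day 84 and 5 against 9 for the day difference of DEN. The median over the 31 genes turned to 0.0248 (CCl4, day 28), 0.24 (DEN, day 84), 0.0734 (CCl4 against DEN, day 28) and 0.081 (day difference of DEN). The smaller CCl4 median of day 84 (-0.11) turned too, to 0.44 under spike-in scaling. It was 0.14 under quantile normalization and 0.04 with slide as a block. Single genes also changed sign under spike-in scaling. With CCl4 at day 28 these were Sqle (0.0475), Lss (0.0265), Msmo1 (0.13), Nsdhl (0.15), Dhcr7 (0.0248), Srebf2 (0.20), Scap (0.53), Npc1 (0.43) and Soat2 (0.43). With DEN at day 84 they were Pmvk (0.062), Fdps (0.0889), Fdft1 (0.14), Cyp51 (0.036), Srebf2 (0.076), Scap (0.41), Npc2 (0.44), Abca1 (0.35), Soat2 (0.24) and Scarb1 (0.16). Between the compounds at day 28 they were Srebf2 (0.062) and Npc2 (0.0734). No called gene changed sign under any other alternative run. Arrays of slide 1 alone gave 1 call for DEN at day 28 and 5 between the compounds, from fewer samples, and the fit of only the groups compared gave 3 there. Of all genes 481 were higher and 308 lower for DEN in the slide 1 fit, and 2034 and 2272 between the compounds. The fit of only the groups compared called 1590 of all genes higher and 1834 lower between the compounds. With no filter on dim probes, the DEN day difference had 5 calls, from more genes tested (622 higher and 594 lower of 15642). With slide as a block, 0 of the 6 control differences were called, where 24 of all 10914 genes were higher and 25 lower. The 2 control groups lay on different slides, so day and slide cannot be told apart between them. Leaving out 1 array at a time gave 4 to 16 calls for DEN at day 28, 4 to 12 between the compounds at day 28 and 2 to 9 for the DEN day difference. Calls over all genes changed in these fits too. The other comparisons stayed within 1.5 times their count in such fits. Rats of the same replicate number did not deviate together (correlations from -0.13 to 0.13), so the numbers give no pairing; the replicate block gave 14 calls for DEN at day 28, 18 for CCl4 at day 84 and 8 for the DEN day difference, and the same count as without it elsewhere. Abcg8 is limited by signal near background.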
